A study of Homo sapiens with 2 samples.

Results

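Transcripts of 10 genes that encode heat shock chaperones were examined in GM12878 cells: HSP90AA1, HSP90AB1, HSP90B1, HSPA8, HSPA1A, HSPA1B, HSPA5, HSPA9, HSPD1 and HSPE1. They were chosen by gene name from the table of transcript models, as members of the HSP90, HSP70, HSP60 and HSP10 families. The choice was not made by their values, although earlier results of these data were known at the time. They are 10 of the 16645 annotated genes with a read, and they account for 938 of the 237608 transcript models. GM12878 is a B-lymphoblastoid line immortalized with Epstein-Barr virus, grown by the ENCODE protocols for the line, with no treatment, no modified allele and no heat shock named in the labels. Native RNA, depleted before library preparation in a way that the labels do not describe further, was read on FLO-MIN106D flow cells after preparation with the SQK-RNA002 direct RNA kit, which included a reverse transcription step. Both libraries, replicates 1 and 2, form 1 group, so that every test compares the reads of these 2 libraries and not conditions. Nothing in the labels says that they came from separate cultures, and any difference between them may be technical. The p-values of the exact tests set that difference against counting error alone.

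Replicate 1 held 1360368 reads and replicate 2 held 1510998, so that 1 read was worth 0.735 and 0.662 counts per 1000000 reads (CPM). A count of 3 reads, the limit that a count of 0 allows, corresponded to 2.21 and 1.99 CPM. Intervals are 95% Wilson intervals and, like this limit, cover counting error only. Of 7 B cell markers, 7 were read in both libraries, at 39.7 to 8088 CPM, while 7 of 12 markers of other cell types were at 0 in both and those 12 summed to 8.09 and 18.5 CPM.

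Chaperones of the HSP70 family bind exposed hydrophobic stretches of unfolded proteins and release them in a cycle driven by ATP and by J-domain cochaperones, and the HSP90 family takes over partly folded clients such as kinases and receptors. HSPD1 and HSPE1 form the barrel and the lid of the folding chamber of the mitochondrial matrix. Some members are made constitutively, others mainly after heat or other proteotoxic stress through the transcription factor HSF1, and those of the endoplasmic reticulum (ER) respond to the unfolded protein response; B-lineage cells that secrete antibody depend on the ER members.

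HSPA1A and HSPA1B, the stress-inducible cytosolic HSP70 genes, are shown first because their coding sequences are nearly identical. Their coding sequences have 1926 bases each, of which 4 differ (99.8% identity), and the longest identical run has 1709 bases. The printed stretch, coding bases 1801 to 1920 of the single-exon models HSPA1A-201 and HSPA1B-201 in GENCODE release 29, holds 3 of the 4 differences, which are in capitals. It lies at chr6:31817557-31817676 for HSPA1A and chr6:31829751-31829870 for HSPA1B, both on the plus strand of GRCh38.
HSPA1A: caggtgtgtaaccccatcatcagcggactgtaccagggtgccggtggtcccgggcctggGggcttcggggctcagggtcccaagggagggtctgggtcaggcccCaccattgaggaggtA
HSPA1B: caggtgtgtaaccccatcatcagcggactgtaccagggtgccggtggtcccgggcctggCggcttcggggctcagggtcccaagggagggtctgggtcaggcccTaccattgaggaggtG
A read that covers none of the 4 positions cannot be placed by its coding sequence. The untranslated parts were not compared, so how well reads could be split between these 2 genes was not tested. Other members were farther apart in coding sequence, from 75.4% identity between HSP90AA1 and HSP90AB1 and 73.7% between HSPA1A and HSPA8 down to 52.9% between HSPA1A and HSPA9.

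Start-site windows from RefSeq (GRCh38.p14, 250 bases before to 50 after the start, 14 windows for the 10 genes) were searched on both strands for elements known from these genes. The heat shock element, to which HSF1 binds, was searched as the pairs GAANNTTC and TTCNNGAA, which overlap within a longer element, and as 3 alternating units in a row, GAA, TTC and GAA with NN between neighbours. The ER stress response element was searched as CCAAT and CCACG with NNNNNNNNN between them. A pair was present in 7 of the 14 windows, which belong to 7 of the 10 genes, and in 13.5% of all 35116 windows. Windows of 4 genes held 3 units, with a gene counted if any of its windows matched, beside 0.49% of all windows. The ER element was present in HSPA5 and HSP90B1, the 2 ER members, and in 0.0769% of all windows. The windows printed here, with these matches in capitals, serve as examples from the cytosolic and ER members: HSPA8 (chr11:123062087-123062386, minus strand), HSP90AA1 (chr14:102086995-102087294, minus), a pair of HSP90AB1 windows (chr6:44246851-44247150 and chr6:44247693-44247992, plus), HSPA1A (chr6:31815293-31815592, plus) and HSPA5 (chr9:125241294-125241593, minus).
HSPA8: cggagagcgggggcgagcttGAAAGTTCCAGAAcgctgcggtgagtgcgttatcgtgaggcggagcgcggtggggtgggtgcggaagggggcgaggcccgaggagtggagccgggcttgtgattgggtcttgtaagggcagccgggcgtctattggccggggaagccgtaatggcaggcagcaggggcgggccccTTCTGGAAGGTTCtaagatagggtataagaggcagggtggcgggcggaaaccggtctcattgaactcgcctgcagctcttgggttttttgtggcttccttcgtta
HSP90AA1: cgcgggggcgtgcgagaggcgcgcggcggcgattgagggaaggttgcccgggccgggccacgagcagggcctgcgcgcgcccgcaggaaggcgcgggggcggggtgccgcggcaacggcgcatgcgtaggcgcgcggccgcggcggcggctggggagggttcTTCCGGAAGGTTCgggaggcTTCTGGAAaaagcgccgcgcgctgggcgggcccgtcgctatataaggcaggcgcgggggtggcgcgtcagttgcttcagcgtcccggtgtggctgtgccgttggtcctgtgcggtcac
HSP90AB1, upstream window: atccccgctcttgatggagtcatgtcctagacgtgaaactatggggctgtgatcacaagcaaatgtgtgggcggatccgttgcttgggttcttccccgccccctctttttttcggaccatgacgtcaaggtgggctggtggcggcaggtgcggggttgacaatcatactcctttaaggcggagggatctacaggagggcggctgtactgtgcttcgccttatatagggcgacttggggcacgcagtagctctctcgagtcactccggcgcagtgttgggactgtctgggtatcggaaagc
HSP90AB1, downstream window: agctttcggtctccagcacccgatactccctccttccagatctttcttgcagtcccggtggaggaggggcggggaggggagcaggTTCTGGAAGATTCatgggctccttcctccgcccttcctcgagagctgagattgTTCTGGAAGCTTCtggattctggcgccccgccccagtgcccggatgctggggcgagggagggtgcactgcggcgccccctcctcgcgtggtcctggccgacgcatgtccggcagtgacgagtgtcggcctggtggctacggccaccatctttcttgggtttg
HSPA1A: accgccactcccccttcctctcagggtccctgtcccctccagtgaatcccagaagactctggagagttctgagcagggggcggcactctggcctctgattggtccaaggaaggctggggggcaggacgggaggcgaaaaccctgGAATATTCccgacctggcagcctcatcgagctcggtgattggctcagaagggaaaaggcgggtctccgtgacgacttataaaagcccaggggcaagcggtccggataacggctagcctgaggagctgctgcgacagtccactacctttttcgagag
HSPA5: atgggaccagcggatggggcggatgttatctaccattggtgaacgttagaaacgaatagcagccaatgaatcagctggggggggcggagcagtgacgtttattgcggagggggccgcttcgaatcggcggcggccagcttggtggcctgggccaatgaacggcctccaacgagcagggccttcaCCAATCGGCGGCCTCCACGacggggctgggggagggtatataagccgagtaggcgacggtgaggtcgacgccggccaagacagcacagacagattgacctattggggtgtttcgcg
These matches describe letters in a window, not binding. The HSP90AB1 model whose annotated start lies in the upstream window, HSP90AB1-203, held 538 and 136 reads in replicates 1 and 2, and that window has none of the searched elements. HSP90AB1-202, which starts in the downstream window with its heat shock elements in capitals, held 1 and 0 reads. A further HSP90AB1 window, chr6:44245944-44246243, lies upstream of both printed ones and has none of the searched elements. HSP90AB1-204, which starts in it, held 0 reads in both libraries. Of HSP90AA1, the model HSP90AA1-201, whose annotated start lies within the printed window, held 319 and 54 reads. That start, at position 102087191, lies before the letters in capitals, so the marked elements fall within the model's first exon. HSP90AA1-202, which starts farther upstream, held 0 in both, a count that allows up to 2.21 and 1.99 CPM of reads with its whole exon chain. Reads that stop short of a start are counted in other models, so these counts do not limit the use of a start. Windows of HSPA1A and HSPA1B were 92.0% identical, and the window of HSPE1 overlapped one of the HSPD1 windows by 204 bases on the opposite strand, since these 2 genes lie head to head on chromosome 2.

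In replicate 1 the 10 genes together made up 0.790% of the library (0.775 to 0.805%), and in replicate 2 they made up 0.571% (0.560 to 0.584%), which is 7899 and 5715 CPM with a mean of 6807 ± 1544 (SD, n = 2). The 3 HSP90 genes summed to 3384 and 2418 CPM, and the 5 HSP70 genes to 3273 and 2371 CPM, so each family took a near-equal part of the reads. By compartment, the 5 cytosolic genes summed to 5375 and 3876 CPM, the 3 mitochondrial genes to 1499 and 1147 CPM, and the 2 ER genes to 1025 and 692 CPM. Every one of these sums was higher in replicate 1.

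Among the cytosolic genes, HSPA8, the constitutive HSP70 that also uncoats clathrin vesicles, had the highest level of the 10 and rank 97 among all annotated genes. Its 3253 and 2616 reads amounted to 2391 and 1731 CPM, a mean of 2061 ± 467 (SD, n = 2), and the log2 ratio of replicate 2 to replicate 1 was -0.47 (two-sided exact binomial test with Benjamini-Hochberg adjustment over 10634 genes, adjusted p = 2.82e-32). HSP90AB1, the constitutive cytosolic HSP90, followed with 2167 and 1881 reads, or 1593 and 1245 CPM (mean 1419 ± 246 (SD, n = 2)). Its log2 ratio was -0.36 (exact binomial test, adjusted p = 1.09e-12). HSP90AA1, the stress-inducible partner paralog, had 1844 and 1297 reads, or 1356 and 858 CPM (mean 1107 ± 352 (SD, n = 2)). Replicate 1 was higher for all 3 of these genes, and the drop was largest for HSP90AA1, at a log2 ratio of -0.66 (exact binomial test, adjusted p = 2.96e-34).

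The stress-inducible HSPA1A and HSPA1B were read at low levels in these cells. HSPA1A had 25 and 42 reads (18.4 and 27.8 CPM), the only member higher in replicate 2, with a log2 ratio of 0.59 that did not pass the test (exact binomial test, adjusted p = 0.468). HSPA1B had 23 and 21 reads (16.9 and 13.9 CPM) and a log2 ratio of -0.28 (exact binomial test, adjusted p = 0.895). They ranked 5175 and 6498 among all annotated genes.

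In the ER, HSPA5, known as BiP, the HSP70 that binds newly imported chains, had 802 and 570 reads, or 590 and 377 CPM (mean 483 ± 150.1 (SD, n = 2)). Its log2 ratio was -0.64 (exact binomial test, adjusted p = 6.06e-14). HSP90B1, the ER member of the HSP90 family, had 592 and 475 reads, or 435 and 314 CPM (mean 375 ± 85.4 (SD, n = 2)), with a log2 ratio of -0.47 (exact binomial test, adjusted p = 1.14e-05). Both ER members were thus higher in replicate 1.

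In the mitochondrion, HSPD1, the barrel subunit, had 1120 and 941 reads, or 823 and 623 CPM (mean 723 ± 142 (SD, n = 2)), with a log2 ratio of -0.40 (exact binomial test, adjusted p = 3.86e-08). HSPE1, its lid, had 569 and 459 reads, or 418 and 304 CPM (mean 361 ± 81.0 (SD, n = 2)), with a log2 ratio of -0.46 (exact binomial test, adjusted p = 2.75e-05). The genes of HSPD1 (chr2:197486581-197516737, minus strand) and HSPE1 (chr2:197499994-197503457, plus strand) overlap, and whether the authors' counting used strand is not given in the sources used here. HSPA9, the matrix HSP70 that pulls imported proteins in and helps build iron-sulfur clusters, had 350 and 333 reads, or 257 and 220.4 CPM (mean 239 ± 26.1 (SD, n = 2)). Its log2 ratio of -0.22 did not pass the test (exact binomial test, adjusted p = 0.304).

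**Figure D1:**
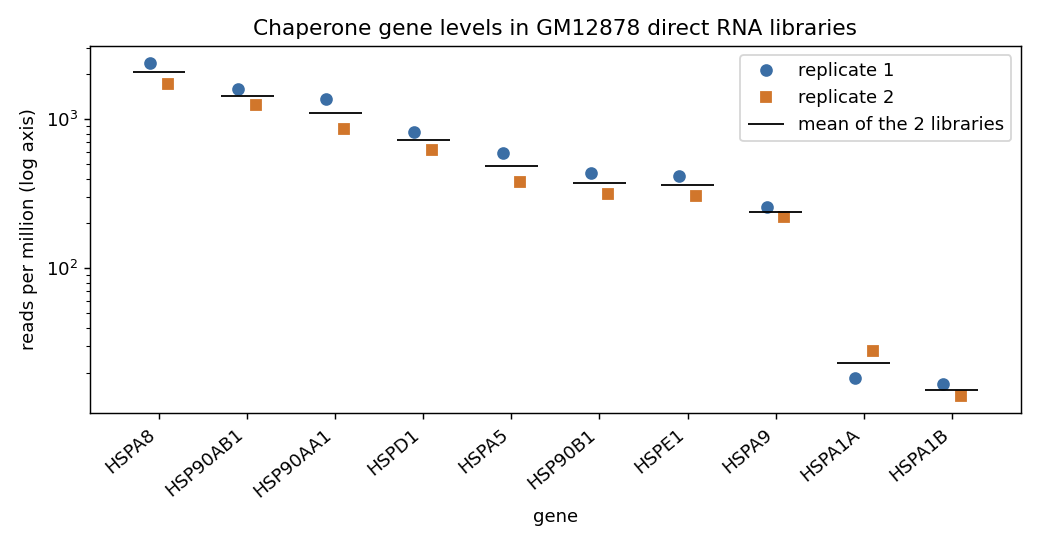
Level of each of the 10 chaperone genes in CPM on a log axis, with a point for each of the 2 libraries and a line at their mean; genes are ordered by mean level. HSPA8 is highest at 2391 and 1731 CPM, and HSPA1A and HSPA1B lie between 13.9 and 27.8 CPM, below the other 8 genes.

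The order of the levels in CPM was HSPA8, HSP90AB1, HSP90AA1, HSPD1, HSPA5, HSP90B1, HSPE1, HSPA9, HSPA1A and HSPA1B, and it was the same in both libraries. The ranges over the 2 libraries overlapped for HSP90AB1 and HSP90AA1, for HSPA5 and HSP90B1, and for HSP90B1 and HSPE1, although in each pair the first gene was higher in both libraries. All other neighbours had ranges that did not overlap. For HSPA1A and HSPA1B this rests on 25 and 23 reads in replicate 1, and how well reads could be split between them was not tested. When CPM were divided by the annotated length of the reference transcript, HSPE1, the shortest at 950 bases, moved up to the third place. Whether counts of these direct RNA reads grow with transcript length was not tested, so this is a rescaling and not a second measure of level. The means on this scale were 837 CPM per kb for HSPA8, 552 for HSP90AB1, 380 for HSPE1, 328 for HSP90AA1 and 295 for HSPD1. Next came HSP90B1 at 131, HSPA5 at 124, HSPA9 at 50.5, HSPA1A at 9.30 and HSPA1B at 6.11 CPM per kb. The models that held the reads often lacked the annotated length. For HSPA9 their mean length was 2284 and 1702 bases in replicates 1 and 2, beside 4727 annotated. Of the 8 multi-exon genes, only HSPE1 had a mean above its annotated length, at 976 and 1032 bases. The order on this scale, with HSP90B1 before HSPA5, thus rests on a length that many reads did not have.

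In all, 7 of the 10 genes differed in read share between the libraries, all lower in replicate 2 (HSP90AA1, HSP90AB1, HSP90B1, HSPA8, HSPA5, HSPD1 and HSPE1), where 5.05% of the 10634 genes tested were called in either direction and 2.33% as lower. Replicate 2 was lower for 9 of 10 members, with a median log2 ratio of -0.43 beside 0.01 over all genes tested. The share of genes called rose with depth: of the 356 genes with at least 1000 reads, 44.1% were called and 22.2% as lower, and all 7 members of that depth were among the latter. With edgeR's exact test and a dispersion common to all genes, estimated from these same 2 libraries (biological coefficient of variation 0.146) and chosen after seeing the data, 0 members were called, beside 0.197% of all genes. Under edgeR, 2 members had an unadjusted p under 0.05, HSP90AA1 at 0.0282 and HSPA5 at 0.0356.

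Reads were next divided by how their model matched the annotation, in the 5 categories of the table: known models, incomplete splice matches (ISM, part of an annotated chain of splice junctions), NIC models (annotated splice sites in another combination), NNC models (with an unannotated splice site) and genomic models (reads over a gene whose splicing fits no other category). Of the reads of the 10 genes, known models held 33.3% (32.4 to 34.2%) in replicate 1 and 18.1% (17.3 to 18.9%) in replicate 2, a mean of 25.7% ± 10.7 (SD, n = 2). ISM models held 47.8% and 64.1%, genomic models 8.79% and 13.0%, NNC models 7.76% and 3.61%, and NIC models 2.35% and 1.15%. Over all annotated genes the known share was 56.5% and 46.4% and the ISM share 24.0% and 32.3%, so the pooled reads of the chaperone genes had a lower known and a higher ISM share in each library. These pooled shares are mostly those of the genes with many reads: the known share was above that of all genes in HSPE1, HSPA1A and HSPA1B in both libraries.

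**Figure D2:**
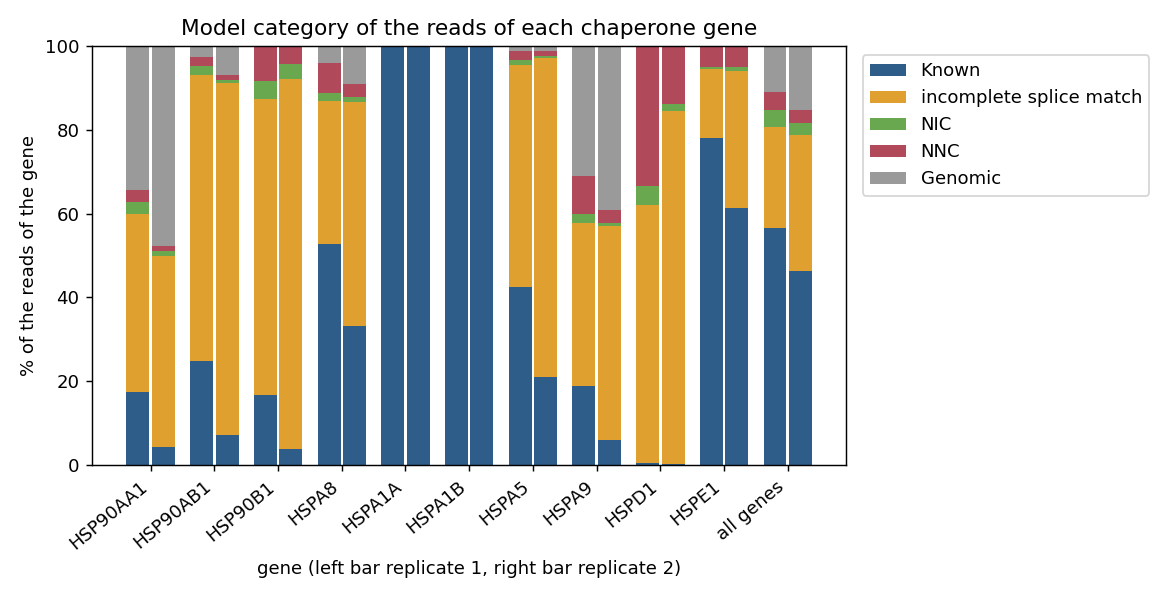
Share of the reads of each chaperone gene, in percent, in known, ISM, NIC, NNC and genomic models, with a bar for each of the 2 libraries. HSPA1A and HSPA1B are 100% known, HSPD1 has almost no known reads, and the known part is smaller in replicate 2 for the other 7 genes.

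The known share fell in 7 of the 10 genes from replicate 1 to replicate 2 by Fisher's exact test, where 27.1% of the 6340 genes tested were called and 26.9% as lower. Among genes with at least 100 reads in each library, 61.2% of all genes were called, beside 7 of the 8 members of that depth. HSPA5 went from 42.5% to 21.1%, HSPA8 from 52.8% to 33.1% and HSPE1 from 78.0% to 61.4%. Among the HSP90 genes, HSP90AB1 went from 24.9% to 7.23%, HSP90AA1 from 17.3% to 4.32% and HSP90B1 from 16.7% to 3.79%. HSPA9 went from 18.9% to 6.01% (Fisher's exact test, adjusted p = 4.86e-06), the largest adjusted p of the 7. The other 3 members had no such difference: HSPA1A and HSPA1B had all their reads in 1 known single-exon model each, and HSPD1 had 4 and 2 known reads in all. Over the 10 genes the median difference was -13.0 percentage points, beside -8.62 over all genes tested. The known share of replicate 2 was lower over all annotated genes as well, and the part of this library-wide difference in the members' values was not tested.

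The ISM share rose in 7 members, where 22.9% of all genes were called and 22.2% as higher. HSPA5 went from 52.9% to 76.0%, HSPD1 from 61.8% to 84.4% and HSPA8 from 34.1% to 53.6%, and HSP90B1 reached 88.4% in replicate 2 from 70.6%. HSP90AA1, at 42.5% and 45.6%, did not pass (Fisher's exact test, adjusted p = 0.234). In HSP90AA1 the genomic share rose instead, from 34.5% to 47.7% (Fisher's exact test, adjusted p = 2.12e-11). Genomic shares also rose in HSPA8, from 4.06% to 8.98%, and HSP90AB1, from 2.54% to 6.96%, so that 3 members were called where 10.4% of all genes were.

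ISM reads of these genes mostly kept the 3′ end. Suffix models, which hold the last junctions of an annotated transcript, took 89.1% (88.2 to 89.9%) and 88.0% (87.1 to 88.8%) of the ISM reads of the 8 multi-exon members, beside 68.4% and 68.0% over all annotated genes. HSPA5 and HSPD1 had the lowest suffix shares, at 59.7% and 48.3% and at 75.9% and 69.9%. In each of them a single-exon ISM model with no subtype was frequent: 161 and 218 reads in an HSPA5 model of 963 bases, and 144 and 212 reads in an HSPD1 model of 618 bases, the length of the last exon of HSPD1-202.

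To describe how far reads extended towards the 5′ end, the share of reads in models with at least as many exons as the main coding transcript was computed for the 8 multi-exon genes, by a choice made after seeing the data. The main coding transcript was the coding model with most reads. HSPD1 had no read in any coding model, so HSPD1-202 (12 exons, 2455 bases) was used in its place. HSPD1-201 also has 12 exons, with 2299 bases. HSPE1, with 4 exons, kept 83.0% of its reads at full exon number in replicate 1 and 66.7% in replicate 2. HSPA5, with 8 exons, kept 45.5% and 22.3%, and HSPA8, with 9 exons, 43.4% and 14.3%. These 3 genes with the fewest exons had the highest shares in both libraries.

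HSPD1, with 12 exons, kept 36.3% and 14.0%, and HSP90AB1, also with 12, kept 28.4% and 8.56%. HSPA9, with 17 exons, kept 27.1% and 8.71%, HSP90B1, with 18, kept 26.2% and 7.37%, and HSP90AA1, with 11, kept 20.9% and 5.24%. HSP90AA1 therefore lay below all 4 genes with more exons in each library when all reads were counted, genomic ones included. Genomic models held 34.5% and 47.7% of its reads. Among known and suffix ISM reads alone, 30.4% and 8.96% of those of HSP90AA1 had the full exon number. HSP90AB1 (28.2% and 8.3%) and HSP90B1 (19.96% and 4.18%) then lay below it and HSPA9 (34.02% and 10.2%) above it. HSPD1 had no such reads with 12 exons. The place of HSP90AA1 thus depended on the reads counted. In the share of all reads, replicate 2 was lower in all 8 genes. As a description over 8 genes, Spearman's rho with exon number was -0.75 in replicate 1 and -0.72 in replicate 2, and with transcript length -0.50 and -0.40; the genes share libraries and these values have no test.

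**Figure D3:**
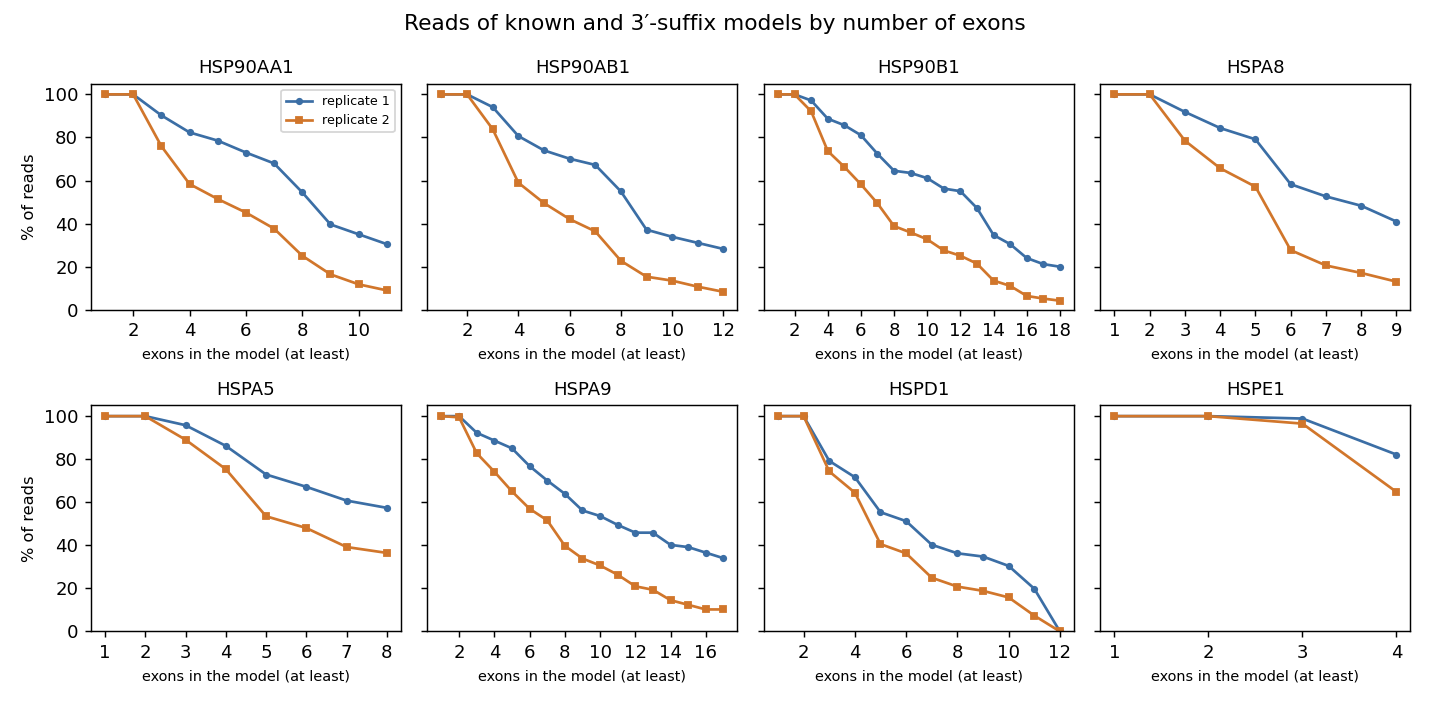
For each of the 8 multi-exon genes, the percentage of reads in known and suffix ISM models that have at least the number of exons on the x axis, with a line for each library. Replicate 2 drops sooner in every panel; for HSPA8, models with at least 5 exons hold 79.1% in replicate 1 and 57.1% in replicate 2, and the HSPD1 line ends at 0 because none of its reads with 12 exons lie in known or suffix ISM models.

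Reads did not thin out evenly with exon number. Of the known and suffix reads of HSPA8, 583 and 654 were in models of 5 exons, more than at the neighbouring numbers of 4 (146 and 190) and 6 (158 and 158). HSP90AB1 had 340 and 121 at 8 exons and 63 and 30 at 9, and HSP90AA1 had 156 and 52 at 8 exons and 48 and 28 at 9. Both cytosolic HSP90 paralogs thus had many replicate 1 reads in models that end at the same number of exons from the 3′ end.

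The models with the whole exon chain were lower in replicate 2 by more than their genes were. HSP90AA1-201 (11 exons, 3379 bases) had 319 and 54 reads, a log2 ratio of -2.70, and HSP90B1-201 (18 exons, 2858 bases) had 99 and 17 reads, a log2 ratio of -2.66. HSPA8-224 and HSP90AB1-203 both stood at -2.13, with 1144 and 289 and with 538 and 136 reads. HSPA9-214 was at -1.92 (66 and 19 reads), HSPA5-201 at -1.65 (341 and 120 reads) and HSPE1-201 at -0.81 (442 and 280 reads). These are ratios of 2 libraries with no test of their own.

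Many suffix models with few exons went the other way. For HSP90AB1, a 2-exon model of 732 bases had 109 and 251 reads and a 3-exon model of 1000 bases had 240 and 385. For HSPA8, the 2-exon model of 664 bases had 186 and 375 reads, and for HSP90B1, the 3-exon model of 545 bases had 36 and 67. In HSP90AA1, the 2-exon model of 1418 bases had 102 and 143 reads, and in HSPA9, the 2-exon model of 1356 bases had 15 and 31. HSPD1 had 110 and 143 reads in a 2-exon model of 797 bases, and HSPA5 25 and 36 in a 2-exon model of 2033 bases. HSPE1 had 85 and 124 in a 3-exon model of 1123 bases, which is longer than HSPE1-201 at 950 bases. Each of these models had more reads in replicate 2, as counts of 2 libraries with no test of their own. A more frequent suffix model of HSPA5, with 3 exons and 2708 bases, did not: it had 57 and 45 reads.

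**Figure D4:**
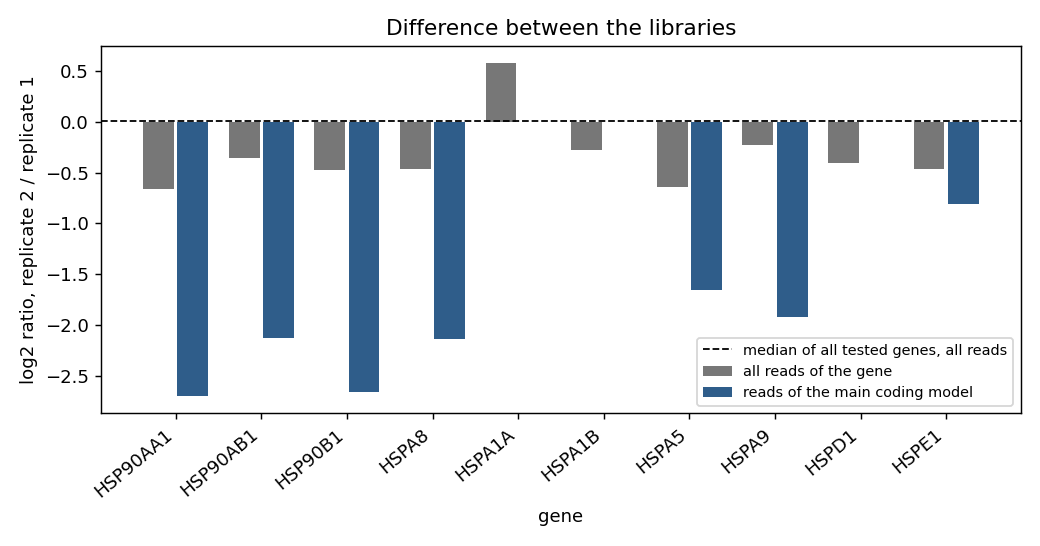
Log2 ratio of replicate 2 to replicate 1, after scaling to library totals, for all reads of each chaperone gene and for its main coding model. The main coding models lie at -0.81 to -2.70, below all reads of the same 7 genes at -0.22 to -0.66. The dashed line is the median of all genes tested at 0.01. HSPD1 has no bar for a coding model, since all of its coding models had 0 reads. HSPA1A and HSPA1B have 1 model with reads each.

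Within the known models alone, 5 members could be tested for the share of their main model, and 1 was called, where 12.5% of the 1878 genes tested were called and 11% as lower. In HSPA8, HSPA8-224 held 66.6% of the known reads in replicate 1 and 33.4% in replicate 2 (Fisher's exact test, adjusted p = 9.19e-56). HSPA8 is the member with the most annotated models, 24, of which 7 had a read. The shorter coding models HSPA8-208 (3 exons, 740 bases) and HSPA8-203 (4 exons, 963 bases) had 174 and 227 and 117 and 154 reads. HSPA8-222 had 132 and 120 reads and HSPA8-201 had 145 and 66. The 2 shortest of these were thus higher in replicate 2 while HSPA8-224 was lower. In contrast, HSP90AB1-203 held 99.8% and 100% of the known HSP90AB1 reads and HSPE1-201 held 99.5% and 99.3% of those of HSPE1.

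HSPD1 had no read in any of its 8 annotated coding models, although it was the fourth of the 10 genes in CPM. Its only known model with reads was HSPD1-210, a retained intron of 714 bases with 4 and 2 reads. The most frequent form in replicate 1 was an NNC model with 12 exons and 3065 bases, which held 335 reads (29.9%) there and 110 (11.7%) in replicate 2. In replicate 2 the single-exon ISM model of 618 bases (212 reads) and suffix models of 2 and 4 exons (143 and 130 reads) were above it. The coding transcript HSPD1-202 also has 12 exons but 2455 bases, and since the table gives no coordinates, where the unannotated splice site lies was not analysed here. HSPA8 had a smaller case, a 9-exon NNC model of 2256 bases with 209 and 66 reads beside HSPA8-224 with the same number of exons and 2463 bases.

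Genomic reads were concentrated in a few single-exon models. For HSP90AA1, 1 such model of 1928 bases held 633 and 617 reads, 34.3% and 47.6% of the gene, and outnumbered HSP90AA1-201 in both libraries. The last exon of HSP90AA1-201 has 1084 bases, so this model is longer than that exon. For HSPA9, a single-exon model of 840 bases held 106 and 122 reads, 30.3% and 36.6%, and its last exon has 2359 bases. HSPA8 had 131 and 232 reads in a model of 391 bases, and HSP90AB1 55 and 130 in a model of 807 bases. HSPD1 and HSPE1 had 0 genomic reads, which allows a share of up to 0.268% and 0.319% in HSPD1 and of up to 0.527% and 0.654% in HSPE1.

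Most of the models of the large genes rested on 1 read. HSPA8 had 184 models, 117 of them with a single read, HSP90AB1 and HSP90B1 had 182 models each, 109 and 128 of them with a single read, and HSP90AA1 had 134 with 76. HSPA5, with 42 models, and HSPE1, with 20, were the simplest of the multi-exon genes. Of the HSPE1 models, 12 were read in both libraries.

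Reads placed on copies of these genes were few. The 10 pseudogenes with a read, of HSP90AA1, HSP90AB1, HSP90B1, HSPD1 and HSPE1, held 21 and 12 reads in all, and none exceeded 9 reads. The readthrough gene HSPE1-MOB4, which joins HSPE1 to its neighbour, held 5 and 17 reads.

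The genes that work with these chaperones were taken from 4 lists of cochaperones, ER folding factors, mitochondrial partners and stress transcription factors, 67 genes of which 64 had enough reads to be tested. Of them 0 were higher and 8 lower in replicate 2 by the exact binomial test, where 5.05% of all genes tested were called and 2.33% as lower. The called partners each had over 100 reads. Genes of 100 to 1000 reads were called as lower in 3.95% of cases, and genes with at least 1000 reads in 22.2%. The lists were not matched to genes of like depth. In the cytosolic list, whose median log2 ratio was -0.19 beside 0.01 over all genes tested, 3 of 28 were lower: STIP1, the adaptor that joins HSP70 to HSP90, at 273 and 181 CPM (log2 ratio -0.60), AHSA1, which activates the HSP90 ATPase, at 191 and 126 CPM (log2 ratio -0.60), and DNAJA1, a J-domain cochaperone, at 237 and 173 CPM (log2 ratio -0.45). The genes of that list with the highest CPM were PTGES3 (343 and 294 CPM), the HSP90 cochaperone p23, the small heat shock protein HSPB1 (296 and 336 CPM) and FKBP8 (260.2 and 312 CPM), and none of these passed.

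In the ER list 5 of 18 were lower, with a median log2 ratio of -0.29. CALR, the lectin chaperone calreticulin, was highest in CPM, at 1272 and 899 CPM (log2 ratio -0.50, exact binomial test, adjusted p = 3.01e-19). PDIA3, the disulfide isomerase that works with it, was at 448 and 320.3 CPM (log2 ratio -0.48), and MANF at 173 and 113 CPM (log2 ratio -0.61). DNAJB11 and SDF2L1, cofactors of HSPA5 named after their values were seen, had log2 ratios of -0.83 and -0.59. P4HB, at 480.0 and 466 CPM, did not pass.

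Of the 12 mitochondrial partners 0 passed, and their median log2 ratio was 0.14, with TRAP1, the HSP90 of the matrix, at 179 and 208 CPM, CLPP at 143 and 181 CPM and LONP1 at 83.1 and 95.3 CPM. Of 6 stress transcription factors tested 0 passed, and their median log2 ratio was -0.16; ATF4 was at 152 and 159 CPM, XBP1 at 148 and 150.2 CPM and ATF5 at 125 and 111 CPM. Chosen after their values were seen, HSF1 itself was at 99.2 and 84.7 CPM, and HSPA6, a strictly stress-inducible HSP70 gene, had 0 reads in both libraries.

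**Figure D5:**
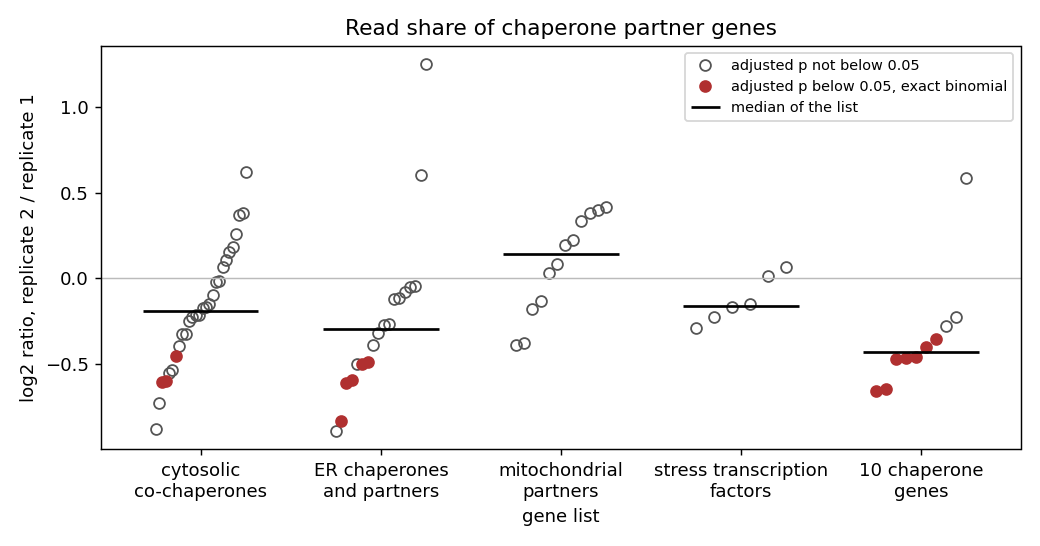
Log2 ratio of replicate 2 to replicate 1 for each tested partner gene, by list, beside the chaperone genes; filled points passed the exact binomial test and the lines are medians. The called partners, 3 cytosolic and 5 in the ER, all lie below 0, and the mitochondrial list has its median at 0.14.

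Genes with a category profile like that of the chaperones were sought among 1904 other genes with at least 100 reads in each library. Distance was the sum of absolute differences over 10 shares, 5 categories in 2 libraries. Against the medians over the members, 8 genes were tied as nearest, so none is named from it. Against the pooled reads of the 10 genes, a measure chosen after seeing this tie, the nearest were SSB, the La RNA-binding protein, at a distance of 20.1 percentage points, PABPN1, the nuclear poly(A)-binding protein, at 22.9, and MRPS26, a mitochondrial ribosomal protein, at 24.5. SSB had 40.6% and 18.6% of its reads in known models.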

How the data were processed

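The deposited table gives the authors' unnormalized counts of reads for each transcript model in both replicates, along with the model's exon number and length. The name of the table shows TALON, and minimap2 and hg38 are named per the submitters' processing notes; versions, read filters and annotation release are not given in the sources used here. Gene counts are sums over all models of a gene. Known model identifiers were matched to GENCODE release 29 (GRCh38), which gave positions, exons and coding sequences; start-site windows came from RefSeq (GRCh38.p14). CPM were computed from library totals.

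A gene's read share was tested, for genes of 10 or more reads, by a binomial test (exact, two-sided) with the share of all reads in replicate 2 as null, and category shares by Fisher's exact test over genes with at least 20 reads in each library (for the main model, 20 known reads), with Benjamini-Hochberg adjustment over all genes and a threshold of 0.05. Log2 ratios had 0.5 reads added to each count. Tests were run in Python 3.11.15 with scipy 1.17.1; edgeR 4.0.16 gave TMM factors and an added exact test with a common dispersion, and DESeq2 1.42.0 gave size factors. The scripts were tested on simulated data.

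The 10 members, the partner and marker lists were chosen with earlier results of these data known. All members are named, and of each partner list the 3 most abundant genes and up to 3 past the test; other names are said to be chosen after seeing values. Alternatives were other scalings, read minimums, sets of models and leaving out each replicate.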

Additional observations from a re-analysis of the deposited data

How the results depend on the processing

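There is 1 group, so the tests compare libraries only, and with each library as its own arm edgeR's quasi-likelihood test would have no residual degrees of freedom. No paired analysis was possible because both libraries belong to the same group. The number of members whose read share differed was 7 under TMM and DESeq2 scaling (5.12% and 5.09% of all genes called), with no minimum (2.78%) and with a minimum of 100 reads (14.4%, 8 members tested). It was 7 of 9 tested with known models only (30.4%), where HSPD1 had too few reads and HSPA9 passed (log2 ratio -1.85), and 8 with genomic models left out (9.44%), where HSPA9 also passed (-0.40). With edgeR's exact test, chosen after seeing the data, the number was 0. The number whose known share differed was 7 under all 3 of its alternatives, where 26.0% of all genes were called with genomic models left out, 35.5% with models of at least 5 reads and 61.2% with at least 100 reads in each library (8 members tested). The number whose main model share differed was 1 of 5 tested with known models (12.5% of all genes called) and 8 of 8 tested when ISM, NIC and NNC models were added (29.7%), so both the members tested and the reads counted changed, and the difference for HSP90AB1 then reversed from 0.186 to -17.7 percentage points, since its ISM reads enter the total. The summed level of the 10 genes was 1832 CPM with known models only, and 5715 to 7899 CPM when either replicate was left out. The known share ran from 18.1% to 33.3% and the suffix share of ISM reads from 88.0% to 89.1% when either replicate was left out, and the suffix share was 90.2% with ISM models of at least 5 reads. HSPA1A and HSPA1B, at 21 to 42 reads per library, limit what a ratio can show.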
